A study of Mus musculus with 24 samples.

Results

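The clustered histone genes encode the core histones H2A, H2B, H3 and H4 and the linker histone H1, and they were read here in the blood of young and old mice 24 h after 4 Gy x-rays. A gene was a member when the name given to its array probe had the form of a numbered histone cluster (Hist1 to Hist4, followed by the histone type) or of the newer H1f, H2ac, H2bc, H3c and H4c symbols. Of 29742 gene names on the array, 51 met this rule, with 59 probes, and each of the 51 matched 1 current RefSeq symbol. The members were 7 H1, 15 H2A, 12 H2B, 8 H3 and 9 H4 genes. Of these, 37 lay in the Hist1 cluster on chromosome 13, 9 in the Hist2 cluster on chromosome 3, 3 in the Hist3 cluster on chromosome 11 and 1, *Hist4h4*, on chromosome 6, while *H1f0* on chromosome 15 belongs to no cluster.

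Whole blood came from 24 male C57BL/6J mice in 4 groups of 6. Young mice were 2 months old and old mice 21 months old, and within each age 6 mice had sham exposure (unirradiated, 0 Gy) and 6 had whole body x-rays at 4 Gy (irradiated). All 24 animals share the strain and sex, no other genotype or agent is named for any of them, and 1 array was run per mouse. In RNA from whole blood, fewer cells of a type and less RNA per cell cannot be told apart.

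A nucleosome is DNA wound on an octamer of the core histones, and H1 binds where the DNA enters and leaves it. Most clustered histone genes are read while DNA is copied in S phase, and their mRNAs end in a short stem-loop in place of a poly(A) tail. Some of these genes also give rise to polyadenylated mRNA, mostly in cells that have left the cell cycle. In blood, lymphocytes and their precursors divide, while platelets have no nucleus and carry mRNA handed down from megakaryocytes.

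Levels are log2 signal minus the array median, and differences between groups are differences of these levels (log2 difference ± SE). A gene was called when its limma *p* was under 0.005 and its Benjamini-Hochberg adjusted *p* was under 0.05 over all genes tested. "Higher" or "rose" and "lower" or "fell" are used for called genes. Of the 51 members, 41 passed the filters on dim and flat probes and were tested with 17805 genes in all. By type these were 5 of 7 H1, 12 of 15 H2A, 11 of 12 H2B, 6 of 8 H3 and 7 of 9 H4 genes. The other 10 carry no test. *H1f0*, *Hist1h1d*, *Hist2h2ab*, *Hist1h3g* and *Hist3h2bb-ps* were too dim, and *Hist1h4c*, *Hist2h3b*, *Hist1h2ag*, *Hist1h4j* and *Hist1h2ao* were above background on all 24 arrays but varied too little to pass the second filter.

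The probes of the members show which stretch of each message could be read. Whether stem-loop or polyadenylated mRNA gave the signal was not tested. The authors labelled the RNA with Agilent's low input Quick Amp kit, and whether this labels both forms equally well was not tested either. In 9 of the 51 probes used there was a match to either part of the stem-loop motif of histone mRNA, searched in the sense of the transcript, against 154 of 39429 probes on the array (0.391%). In 1 of these 9, the probe of *Hist1h1a*, the match lay away from the end of the message. The following stretches are given because their place relative to the stem-loop differs. Capitals mark the part of the stem-loop in the probe, and each stretch is cut to 30 bases.

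Hist1h2ab: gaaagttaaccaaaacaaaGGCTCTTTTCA

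Hist1h3a: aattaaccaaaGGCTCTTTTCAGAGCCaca

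Hist1h4m: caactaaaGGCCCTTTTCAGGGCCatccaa

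Hist2h2aa1: aaaaGGCTCTTTTCAGAGCCacccactgaa

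Hist1h2ae: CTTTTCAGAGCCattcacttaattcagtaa

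The probe of *Hist1h2ab* (chr13:23843392-23843451, mm9, + strand) ended within the stem-loop. Those of *Hist1h3a* and *Hist1h4m* went on for 3 and 6 bases past the stem-loop. The probe of *Hist2h2aa1* (chr3:96049949-96050005, mm9, + strand) went on for 38 bases past it and that of *Hist1h2ae* for 48, so most of these 2 probes lay beyond the point where the stem-loop form of the mRNA ends.

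A second feature of the probes is that some cannot tell copies apart. In 8 of the 41 tested members the probe shared at least 25 bases in a row with the probe of another member. Of these, 6 were H2A probes from the coding end, and the other two were those of *Hist1h3c* and *Hist1h3f*. Of these, 3 H2A probes are printed to show how alike they are, with capitals where the base is the same as in the probe of *Hist1h2ah*.

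Hist1h2ah: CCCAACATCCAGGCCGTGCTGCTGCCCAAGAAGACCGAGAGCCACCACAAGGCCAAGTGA

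Hist1h2af: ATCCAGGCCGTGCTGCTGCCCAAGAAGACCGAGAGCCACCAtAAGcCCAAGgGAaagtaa

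Hist2h2aa2: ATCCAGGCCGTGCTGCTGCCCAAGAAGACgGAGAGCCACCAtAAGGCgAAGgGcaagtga

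Values from these 8 probes are therefore uncertain as to the gene, and 5 of the H2A probes also shared such a run with *H2afj*, a histone variant outside the clusters. The 33 members with no shared run carried all 12 of the higher calls at each age described next. Runs were searched only between probes of the array and not in transcripts. A probe with no shared run may therefore still read other copies.

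In young mice, 12 of 41 tested members rose after irradiation and 4 fell, where 14.3% of all genes tested rose and 21.1% fell. The median log2 difference was 0.25 over the members and −0.20 over all genes. In old mice 12 rose and 2 fell, where 7.49% of all genes rose and 17.4% fell, and the medians were 0.53 and −0.26. A total of 10 members rose at both ages (5.2% of all genes tested) and 2 fell at both ages (10%). These 10 were *Hist1h1c*, *Hist2h2aa1*, *Hist1h2ba*, *Hist1h2bc*, *Hist1h2be*, *Hist1h2bg*, *Hist1h2bm*, *Hist1h2bq*, *Hist2h3c2* and *Hist1h4i*, and so included every histone type. *Hist1h2bq* was not well above background in any mouse of the young groups or in old unirradiated mice, and without it 11 members rose at each age and 9 at both. The irradiated and unirradiated groups were separate, with the irradiated group higher, for 5 members in young mice (9.46% of all genes, and *Hist1h2bq* is 1 of the 5) and for 11 in old mice (5.82%). They were separate with the irradiated group lower for 1 member in young (15.2% of all genes) and 0 in old mice (16.7%). The 2 that fell were *Hist1h1b* and *Hist1h2ab*. All 16 members called in young mice and all 14 in old mice kept their sign under 4 other scalings of the arrays, and 8 of the 12 rises in young and 11 of the 12 in old mice stayed called under all 4. Of the falls, 2 of 4 in young and 0 of 2 in old mice stayed called under all 4. With normexp background correction 3 of 32 members rose in young and 0 in old mice (12 of 32 members at an unadjusted limma *p* under 0.05 in old mice). Under those scalings the median of all genes moved from −0.26 to between −0.05 and 0.30 in old mice, and the median of the members lay between 0.71 and 1.01.

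**Figure D1:**
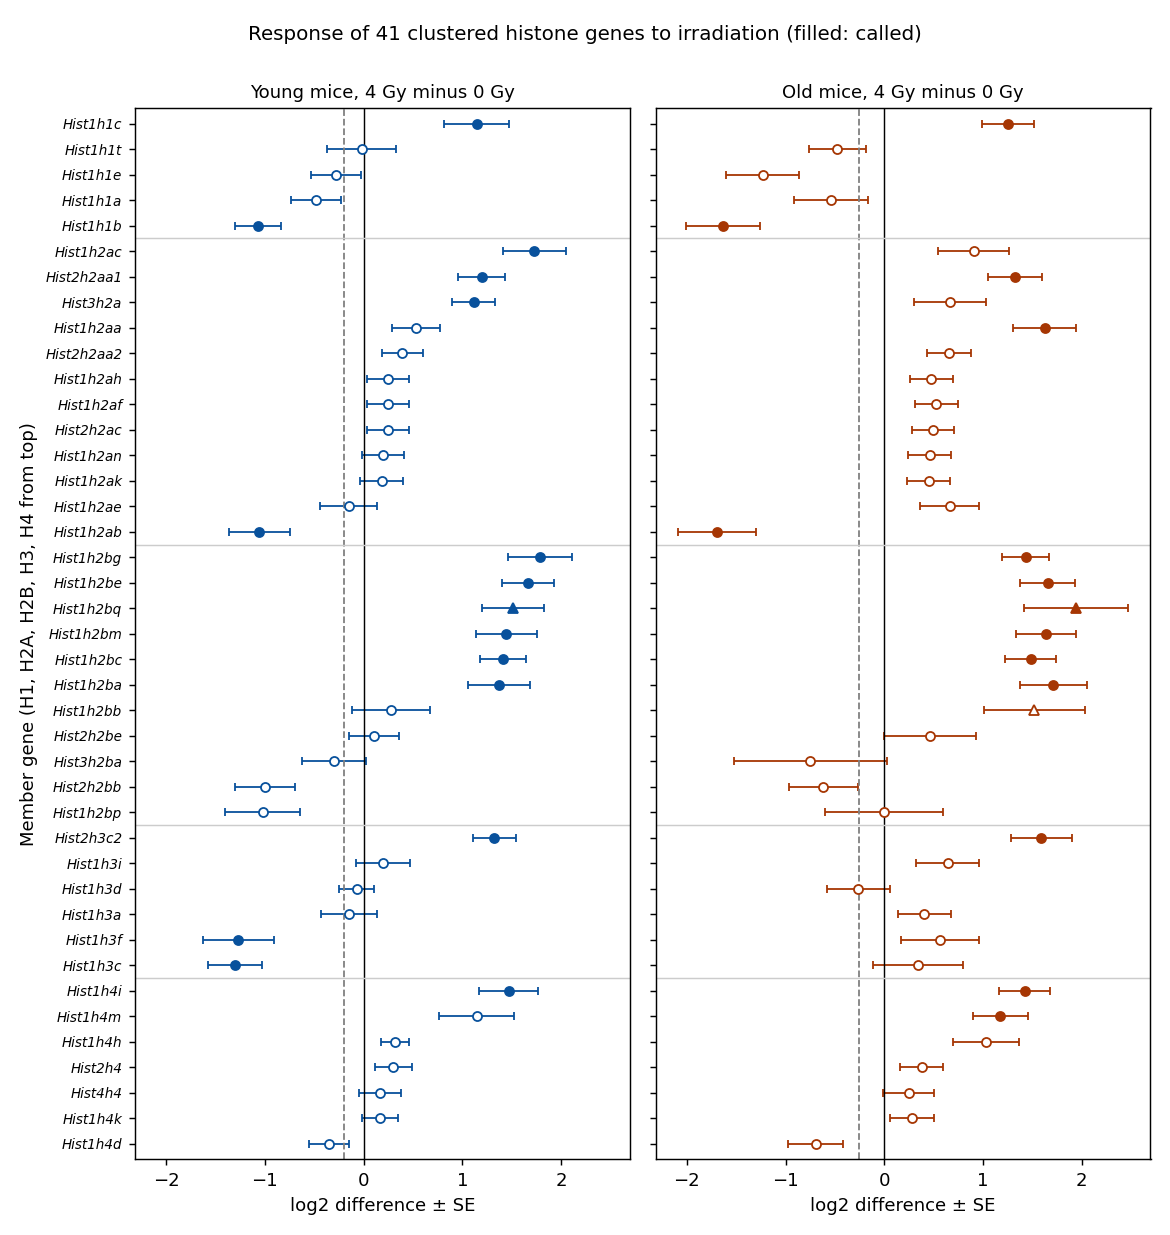
Log2 difference ± SE (x axis) of irradiated minus unirradiated mice for the 41 tested members (y axis), in young and old mice and ordered by histone type, with n = 6 per group. Filled points were called, triangles mark a gene with no mouse well above background in at least 1 of the groups compared, and the dashed line is the median of all genes tested. The H2B genes hold 6 of the 12 rises at each age, with differences between 1.37 and 1.79 in the 5 of them other than *Hist1h2bq*.

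The H1 genes split, and their median difference was −0.28 in young and −0.54 in old mice. *Hist1h1c* (now H1f2, chr13:23832018-23832077, mm9, + strand), a linker histone of most somatic cells, ran from 7.75 to 8.62 with a median of 8.39 in young unirradiated mice, and from 7.92 to 10.12 with a median of 9.64 in young irradiated mice. In old mice it ran from 8.78 to 9.70 (median 9.24) without and from 9.77 to 10.85 (median 10.59) with irradiation. The young groups overlapped through 1 irradiated mouse and the old groups did not overlap. The log2 difference was 1.14 ± 0.33 in young (limma adjusted *p* = 0.0118) and 1.25 ± 0.27 in old mice (limma adjusted *p* = 0.00399). The young call was lost when any array but that of young irradiated mouse 4 was left out and under 3 of 4 other scalings, with differences between 1.01 and 1.21 on leaving out those arrays.

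*Hist1h1b* (now H1f5, chr13:21871923-21871982, mm9, − strand), a linker histone of dividing cells, went the other way. Its level ran from 2.60 to 3.74 (median 3.20) in young unirradiated and from 1.73 to 2.49 (median 2.10) in young irradiated mice, with no overlap. In old mice it ran from 2.06 to 3.63 (median 3.29) and, after irradiation, from 0.63 to 2.23 (median 1.23). It fell by 1.07 ± 0.24 on the log2 scale in young (limma adjusted *p* = 0.00254) and by 1.63 ± 0.38 in old mice (limma adjusted *p* = 0.00589), or 2.10-fold and 3.10-fold. The remaining 3 tested H1 genes were not called. *Hist1h1e*, another linker histone of somatic cells, had differences of −0.28 in young and −1.23 ± 0.37 in old mice (limma adjusted *p* = 0.021, above the unadjusted threshold). *Hist1h1a* had −0.48 and −0.54, and *Hist1h1t*, the linker histone of the testis, −0.02 and −0.47.

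**Figure D2:**
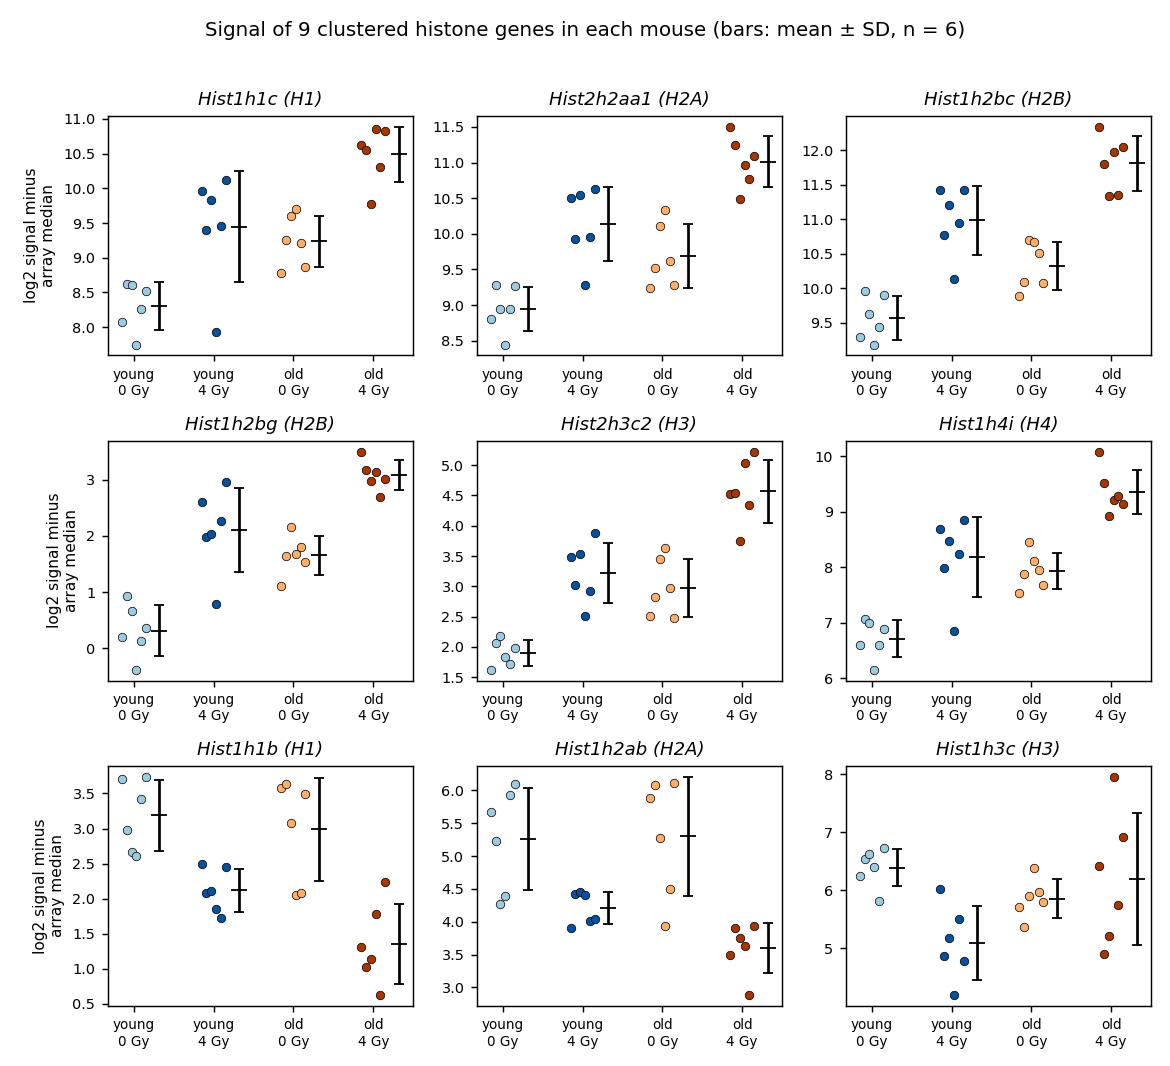
Level of 9 members (log2 signal minus array median, y axis) in each of 24 mice (points) by group (x axis), with the mean ± SD of 6 mice. *Hist1h1c*, *Hist2h2aa1*, *Hist1h2bc*, *Hist1h2bg*, *Hist2h3c2* and *Hist1h4i* were higher and *Hist1h1b* and *Hist1h2ab* lower after irradiation at both ages, while *Hist1h3c* was lower in young mice and not called in old mice.

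Among the H2A genes (12 tested), 3 rose and 1 fell in young mice, where 14.3% of all genes rose and 21.1% fell. In old mice 2 rose and 1 fell, where 7.49% of all genes rose and 17.4% fell. *Hist2h2aa1*, a core H2A gene of the Hist2 cluster, ran from 8.45 to 9.28 (median 8.94) in young unirradiated and from 9.28 to 10.63 (median 10.23) in young irradiated mice. In old mice the levels were 9.23 to 10.34 (median 9.57) and 10.49 to 11.51 (median 11.03). The groups did not overlap at either age. It rose by 1.20 ± 0.24 (limma adjusted *p* = 0.00137) and 1.33 ± 0.27 (limma adjusted *p* = 0.00342), and this was read by the probe that lies mostly past the stem-loop. The probe of *Hist1h2ae*, which also lies past it, had differences of −0.15 and 0.66 and was not called.

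*Hist1h2ac*, a core H2A gene of the Hist1 cluster, ran from 2.49 to 3.52 (median 2.90) in young unirradiated and from 3.28 to 5.22 (median 4.94) in young irradiated mice. The groups overlapped through 1 irradiated mouse. It rose 3.32-fold in young mice (1.73 ± 0.32, limma adjusted *p* = 0.000762), and in old mice the difference of 0.90 ± 0.36 was not called (limma adjusted *p* = 0.0663). *Hist3h2a*, the H2A gene of the Hist3 cluster, likewise rose in young mice (1.11 ± 0.22, limma adjusted *p* = 0.00122) with 0.67 ± 0.36 in old mice. *Hist1h2aa*, an H2A of the testis by its usual description, had 0.53 ± 0.24 in young mice and rose by 1.62 ± 0.32 in old mice (limma adjusted *p* = 0.00265). The difference between the ages was called for none of these 3 genes.

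*Hist1h2ab*, whose probe ends within the stem-loop, ran from 4.26 to 6.09 (median 5.45) in young unirradiated and from 3.90 to 4.45 (median 4.22) in young irradiated mice. In old mice it ran from 3.93 to 6.11 (median 5.58) and from 2.89 to 3.94 (median 3.69). The groups overlapped at both ages, in old mice only at the edge. It fell by 1.06 ± 0.31 on the log2 scale in young (limma adjusted *p* = 0.0132) and by 1.70 ± 0.39 in old mice (limma adjusted *p* = 0.00598). The young call was lost in 10 of 12 fits that left out 1 array, with differences from −1.11 to −0.89. The 6 H2A genes read by shared coding probes were not called at either age and had differences from 0.18 to 0.39 in young and 0.45 to 0.66 in old mice. *Hist1h2ah* and *Hist2h2aa2*, the brightest of them, had 0.25 and 0.39 in young and 0.48 and 0.66 in old mice.

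The H2B genes held the largest group of rises. Of 11 tested, 6 rose and 0 fell at each age, and their median difference was 1.37 in young and 1.48 in old mice. All genes tested rose in 14.3% and fell in 21.1% of cases in young mice, and in 7.49% and 17.4% in old mice. Without *Hist1h2bq* and *Hist1h2bb*, each of them not above background in some group, 5 of 9 rose at each age and the medians were 1.37 and 1.43. Of the other 5, 2 in young and 1 in old mice had an unadjusted limma *p* under 0.05, as did 53.2% and 44.8% of all genes. *Hist1h2bc* (now H2bc4, chr13:23784254-23784313, mm9, + strand) ran from 9.19 to 9.97 (median 9.53) in young unirradiated and from 10.13 to 11.43 (median 11.07) in young irradiated mice. In old mice the levels were 9.89 to 10.70 (median 10.30) and 11.34 to 12.34 (median 11.88). The groups did not meet at either age. The difference was 1.41 ± 0.23 in young (limma adjusted *p* = 0.000376) and 1.48 ± 0.26 in old mice (limma adjusted *p* = 0.00157), or 2.66-fold and 2.79-fold.

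*Hist1h2be* (chr13:23675610-23675669, mm9, − strand) ran from 2.95 to 3.41 (median 3.30) in young unirradiated and from 3.70 to 5.52 (median 5.06) in young irradiated mice. It ran from 3.70 to 4.51 (median 4.03) in old unirradiated and from 5.18 to 6.35 (median 5.72) in old irradiated mice, so that the groups were separate at both ages. It rose by 1.67 ± 0.26 (limma adjusted *p* = 0.000274) and by 1.65 ± 0.28 (limma adjusted *p* = 0.00126). *Hist1h2bg* (now H2bc8) had the largest young rise of the members, 3.45-fold. Its level went from between −0.38 and 0.92 (median 0.28) to between 0.79 and 2.96 (median 2.14) in young mice, and from between 1.10 and 2.15 (median 1.66) to between 2.69 and 3.5 (median 3.08) in old mice. The young groups overlapped slightly and the old groups did not. The differences were 1.79 ± 0.33 (limma adjusted *p* = 0.000753) and 1.43 ± 0.24 (limma adjusted *p* = 0.0012).

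The H2B gene of the testis, *Hist1h2ba*, rose by 1.37 ± 0.31 and 1.71 ± 0.34 (limma adjusted *p* = 0.00321 and 0.00285), and *Hist1h2bm* rose by 1.45 ± 0.31 and 1.64 ± 0.30. *Hist1h2bq* passed the test at both ages but was well above background in 0 of 6 mice of each group except old irradiated mice, where it was above in 4 of 6. Taken against the lowest signal well above background, it was about 3.11-fold higher in old irradiated than in old unirradiated mice (limma adjusted *p* = 0.0133). No fold is given for young mice. *Hist1h2bb* was not well above background in any old unirradiated mouse, was about 1.43-fold higher in old irradiated mice on the same reckoning and was not called (limma adjusted *p* = 0.0345). *Hist2h2be* had 0.10 and 0.46. *Hist1h2bp* and *Hist2h2bb* had −1.02 and −1.0 in young and −0.01 and −0.62 in old mice, none of them called, so the H2B genes did not all move alike.

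Of 6 tested H3 genes, 1 rose and 2 fell in young mice, where 14.3% of all genes rose and 21.1% fell. In old mice 1 rose and 0 fell, where 7.49% of all genes rose and 17.4% fell. *Hist2h3c2* (now H3c15, chr3:96042034-96042093, mm9, − strand) ran from 1.63 to 2.18 (median 1.91) in young unirradiated and from 2.51 to 3.88 (median 3.25) in young irradiated mice. In old mice it ran from 2.47 to 3.63 (median 2.90) and from 3.75 to 5.22 (median 4.53). It rose with no overlap at both ages, by 1.32 ± 0.22 (limma adjusted *p* = 0.000365) and 1.59 ± 0.31 (limma adjusted *p* = 0.00259).

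*Hist1h3c* ran from 5.82 to 6.73 (median 6.47) in young unirradiated and from 4.2 to 6.03 (median 5.02) in young irradiated mice, and it fell by 1.30 ± 0.27 on the log2 scale (limma adjusted *p* = 0.00189). In old mice it ran from 5.37 to 6.39 (median 5.85) and from 4.90 to 7.96 (median 6.09), a difference of 0.34 ± 0.46 that was not called. The old irradiated mice thus spread more widely than the other groups. *Hist1h3f*, whose probe shares bases with that of *Hist1h3c*, fell by 1.27 ± 0.36 in young mice (limma adjusted *p* = 0.0108) and had 0.56 ± 0.39 in old mice. The young call of *Hist1h3f* was lost in 6 of 12 fits without 1 array, with differences from −1.28 to −1.20. *Hist1h3d* had −0.07 and −0.26 and *Hist1h3a* had −0.15 and 0.41, none of them called.

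Of 7 tested H4 genes 1 rose in young and 2 rose in old mice, where 14.3% and 7.49% of all genes did. *Hist1h4i* (now H4c9, chr13:22132591-22132650, mm9, − strand) ran from 6.15 to 7.07 (median 6.74) in young unirradiated and from 6.86 to 8.86 (median 8.35) in young irradiated mice. In old mice it ran from 7.54 to 8.46 (median 7.91) and from 8.92 to 10.08 (median 9.24). The young groups overlapped and the old groups did not. It rose by 1.47 ± 0.30 (limma adjusted *p* = 0.00165) and 1.42 ± 0.26 (limma adjusted *p* = 0.00189). The other two probes of *Hist1h4i* had 1.14 and 0.74 in young and 1.25 and 1.59 in old mice. *Hist1h4m*, read next to its stem-loop, had 1.14 ± 0.38 in young mice (limma adjusted *p* = 0.0237, not called) and rose by 1.18 ± 0.28 in old mice (limma adjusted *p* = 0.00674). *Hist1h4d* had −0.35 and −0.69 and was not called.

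Whether the response differed between young and old mice was tested over all 24 arrays. Of the 41 members 0 were called, as were 0 of 17805 genes (0%), and 4 members had an unadjusted limma *p* under 0.05, against 23.6% of all genes. The largest of these differences were those of *Hist1h3f* (1.83 ± 0.54, limma adjusted *p* = 0.118) and *Hist1h3c* (1.64 ± 0.55, limma adjusted *p* = 0.131). In 6 arrays, those of 3 young and 3 old irradiated mice, the mean of 7 hepatocyte markers lay between 7.48 and 8.83 above the young unirradiated median, and the highest of the other 18 was 4.84. Without these 6 arrays, 4 members were called for a difference between the ages, where 20.5% of all genes were. These were *Hist1h3c* (2.31 ± 0.47, limma adjusted *p* = 0.00555), *Hist1h3f* (2.17 ± 0.47, limma adjusted *p* = 0.00677), *Hist1h4h* (1.19 ± 0.31) and *Hist1h2bb*, for which no size is given since its old unirradiated group was not above background. Only 3 old irradiated mice remain in that fit. In 2 of them the mean of 15 mitotic genes was 0.52 and 0.55, against −1.03 or less in the other 4 old irradiated mice.

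Without the same 6 arrays, 17 members rose and 1 fell in young mice (32.9% of all genes called) and 14 rose and 1 fell in old mice (40.3%). All 12 young rises stayed called, as did 11 of 12 in old mice (*Hist1h2bq* did not). *Hist1h1b* and *Hist1h2ab* kept their sign and lost the call at both ages, with −0.84 and −1.13 in young and −1.21 and −1.61 in old mice. *Hist1h3f* also lost its call in young mice (−0.94), and *Hist1h3c* kept it (−1.06).

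Markers of blood cells moved in different directions after irradiation. All 6 platelet markers, among them *Pf4* and *Ppbp*, which encode chemokines of platelet granules, were well above background on all 24 arrays and rose at both ages, with median differences of 1.71 and 1.81. The mean of the 6, relative to the young unirradiated median, ran from −0.48 to 0.39 in young unirradiated, from 0.50 to 2.47 in young irradiated, from 0.70 to 1.68 in old unirradiated and from 2.28 to 3.32 in old irradiated mice. The median of the 9 members other than *Hist1h2bq* that rose at both ages ran from −0.35 to 0.25, from 0.34 to 2.12, from 0.56 to 1.48 and from 1.96 to 3.05 in the same order. The lowest young irradiated mouse, mouse 4, was the same in both (0.34 and 0.50). Mouse 4 was also the lowest of its group in T cell, erythroid and monocyte markers. It had the highest hepatocyte marker mean of the 24 mice (8.83). In the authors' blood counts, platelet numbers showed no appreciable change after irradiation at either age. In the same counts, the lymphocyte share of white cells fell at both ages and neutrophils became the most abundant white cells. Cell numbers and RNA levels relative to the array median are unlike measures. The part of platelet RNA in the rise of these members was not tested.

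**Figure D3:**
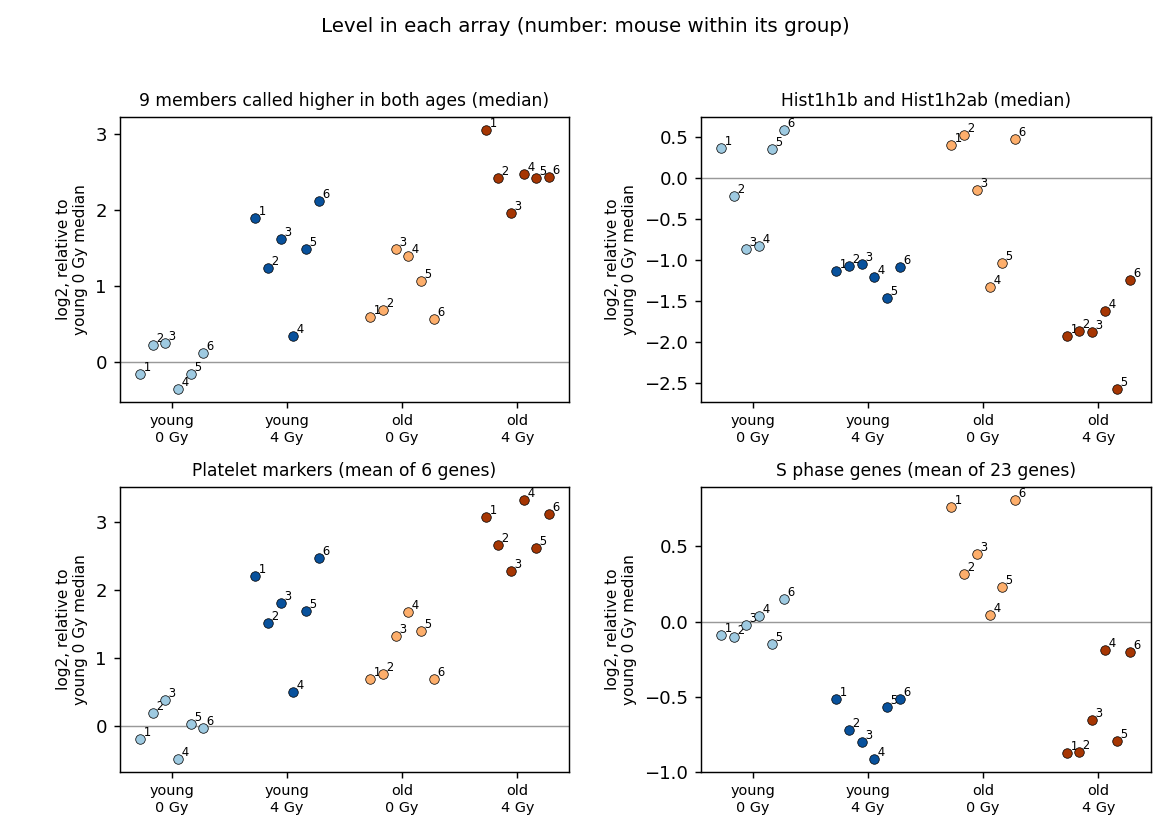
Mean or median level relative to the young unirradiated median (log2, y axis) in each of 24 mice (points) by group (x axis), for the 9 members other than *Hist1h2bq* that rose at both ages, the pair that fell, 6 platelet markers and 23 S phase genes. By group median, and with the array median scaling only, the 9 members and the platelet markers were lowest in young unirradiated and highest in old irradiated mice. The pair that fell and the S phase genes lay lower in irradiated mice.

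The pair that fell, *Hist1h1b* and *Hist1h2ab*, had a median from −0.86 to 0.59 in young unirradiated, −1.46 to −1.05 in young irradiated, −1.33 to 0.53 in old unirradiated and −2.57 to −1.24 in old irradiated mice. S phase genes fell as well, 13 of 21 tested in young mice and 12 of 21 in old mice, with median differences of −0.75 and −1.22. *Mcm4*, a subunit of the replicative helicase, fell by 0.92 and 1.35 on the log2 scale, and *Pcna*, the sliding clamp of DNA polymerase, had −0.44 (not called) and −1.26 (called). Of 6 B cell markers 6 fell in young and 5 in old mice, with medians of −2.40 and −3.62. The part of dividing cells or of B cells in the fall of the 2 histone genes was not tested.

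Genes outside the clusters that make and handle histones were read as well. Of 21 tested genes for the transcription and 3′ end processing of histone mRNA, 1 rose and 10 fell in young mice, and 0 rose and 12 fell in old mice, with medians of −0.64 and −1.26. *Snrpg*, which encodes a protein of the Sm ring of small nuclear RNPs, fell by 0.65 and 1.25 on the log2 scale. The stem-loop binding protein gene *Slbp*, named after its values were seen, had −0.76 and −1.18 and was not called at either age. Of 20 tested histone chaperone and acetylation genes, 14 fell in young and 9 in old mice, among them *Nap1l1* (−0.64 and −0.84) and *Npm1* (−0.77 and −1.86).

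Of 9 tested genes for histone variants outside the clusters, 3 fell in young mice. These were *H2afv* (−0.53), *H3f3a* (−1.15) and *Cenpa*, the centromeric H3 (−1.29). In old mice *H2afy*, the macroH2A gene, fell by 1.25 on the log2 scale. The remaining values in young and old mice were −0.12 and −0.03 for *H2afx*, −0.54 and −0.06 for *H2afy2*, 0.29 and −0.68 for *H2afz*, 0.26 and 0.56 for *H2afj* and 0.08 and −0.36 for *H3f3b*.

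The other lists gave the following counts. Of 6 T cell markers 5 fell in young and 0 in old mice (lowest adjusted *p* in old mice 0.101, with 1 unadjusted *p* under 0.05, limma). Of 6 neutrophil markers 4 rose in young and 0 in old mice (0 unadjusted *p* under 0.05, limma), and 5 of 5 tested tissue macrophage markers rose in young and 1 in old mice. Of 4 monocyte markers 1 rose and 1 fell in young and 1 rose and 2 fell in old mice, of 6 erythroid markers 1 rose and 3 fell in young and 0 moved in old mice (1 unadjusted *p* under 0.05, limma), and of 15 mitotic genes 5 fell in young and 3 in old mice. Of 4 tested hepatocyte markers 0 rose in young (1 unadjusted *p* under 0.05, limma) and 4 in old mice.

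Age itself was compared in mice without irradiation. In old mice 22 of 41 members were higher and 2 lower than in young mice, where 48.5% and 15.4% of all genes tested were. The median difference was 0.64 over the members and 0.63 over all genes. The split depended on the scaling. With the 75th percentile, quantile normalization, the median of bright probes (above background on every array) and the authors' values, the members higher were 3, 4, 2 and 3, the members lower were 7, 5, 7 and 6, and the median of all genes was −0.00, 0.14, −0.08 and 0.02. The members tested were 38, 36, 35 and 36. Of all genes tested, 37.3%, 38.3%, 35.8% and 25.9% were called, and 28.9%, 44.8%, 21.6% and 17.2% of the called genes were higher. Young and old mice were also scanned on different days, so age and scan day cannot be told apart.

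In 4 members the age difference was called under all of these scalings, and how many of all genes were was not counted. *Hist1h2ac* ran from 4.39 to 4.91 (median 4.5) in old unirradiated mice, against 2.49 to 3.52 in young ones, a difference of 1.62 ± 0.19 (limma adjusted *p* = 1.55e-05). *Hist1h2bg* was higher by 1.34 ± 0.22 (limma adjusted *p* = 0.000154). *Hist1h1a*, a linker histone of lymphoid and germ cells, was lower by 1.10 (−1.10 ± 0.21, limma adjusted *p* = 0.000349). *Hist1h2bb* was well above background in 3 of 6 young and 0 of 6 old mice. Taken against the lowest signal well above background, old mice were about 1.15-fold lower (limma adjusted *p* = 0.000506). In these 4 genes the young and old groups did not overlap, as was so for 16 members higher and 2 lower in old mice, against 37.4% and 11.2% of all genes. Among the calls not kept under all of these scalings were those of *Hist1h4i* (1.22 ± 0.19), *Hist2h2be* (1.15 ± 0.27), *Hist2h3c2* (1.08 ± 0.21), *Hist1h3a* (1.05 ± 0.18) and *Hist1h1c* (0.93 ± 0.20). With the array median scaling, platelet markers were also higher in old unirradiated mice, 5 of 6 (median 1.04), and neutrophil markers 6 of 6 (median 1.91). With that scaling 48.5% of all genes were higher (median of all genes 0.63), and the marker lists were not read under the other scalings. The part of platelets or neutrophils in these differences was not tested.

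**Figure D4:**
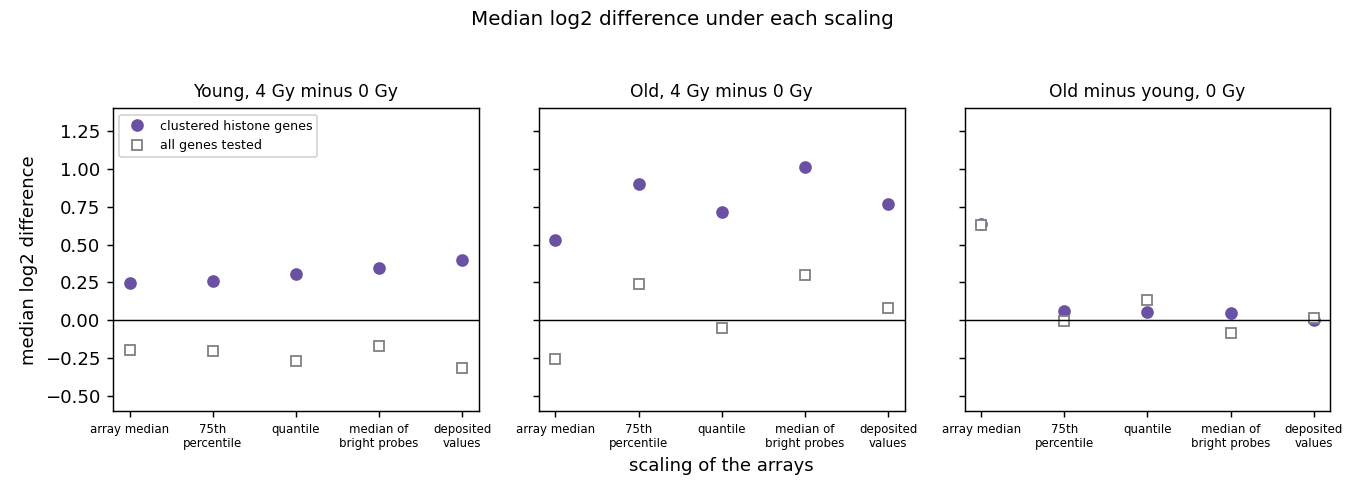
Median log2 difference (y axis) of the members and of all genes tested under 5 scalings of the arrays (x axis), for irradiation in young mice, irradiation in old mice and age in unirradiated mice. In both irradiation comparisons the members lie above all genes under each scaling, and in the age comparison both lie between −0.08 and 0.14 under the 4 scalings other than the array median.

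Between irradiated mice of the 2 ages, 2 members were higher in old mice and 0 lower (1.4% and 0.595% of all genes), with 28 of 41 members at an unadjusted limma *p* under 0.05 (21.4% of all genes). That count was 13 of 38 members with the 75th percentile, 9 of 36 after quantile normalization, 14 of 35 with bright probes, 8 of 36 with the authors' values and 6 of 41 without the 6 arrays with high hepatocyte markers. The groups did not overlap for 4 members higher and 0 lower in old mice, against 4.45% and 0.601% of all genes. *Hist1h3a* ran from −2.35 to −0.64 (median −1.38) in young irradiated and from −0.51 to 0.86 (median 0.22) in old irradiated mice, without overlap (1.61 ± 0.34, limma adjusted *p* = 0.0376). *Hist2h3c2* was higher by 1.34 ± 0.32 (limma adjusted *p* = 0.0479). The calls were lost in 9 and 11 of 12 fits that left out 1 array, with differences from 1.42 to 1.76 for *Hist1h3a* and from 1.20 to 1.47 for *Hist2h3c2*. Of 4 other scalings, *Hist1h3a* was called under 1 and *Hist2h3c2* under 0, with differences from 1.33 to 1.84 and from 1.02 to 1.12.

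The start sites of the members hold motifs that are common in histone promoters. In windows of 250 bases before to 50 bases after the start (RefSeq, GRCm38.p6), searched on both strands, 46 promoters of 45 members were found, and 36 of these members were tested. TATAAA was in 26 of 46 (56.5%) against 13.6% of 32851 promoters, and CCAAT in 39 of 46 (84.8%) against 37.4%. CCAAT was in all H2A, H2B and H3 promoters and in 2 of 8 H4 promoters (25%). The octamer core ATTTGCA, known from H2B promoters, was in 6 of 10 H2B (60%) and 7 of 15 H2A promoters (46.7%), in 0 of the H1, H3 and H4 promoters and in 4.02% of all promoters. Divergent H2A and H2B genes can share such a stretch. The 150 bases before the start of an H2B gene that rose and an H2A gene that fell are shown, with the 3 motifs in capitals on either strand.

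Hist1h2bg (chr13:23571250-23571399, + strand): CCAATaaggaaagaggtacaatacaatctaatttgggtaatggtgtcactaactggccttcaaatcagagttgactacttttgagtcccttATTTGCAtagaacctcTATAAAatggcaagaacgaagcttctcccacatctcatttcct

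Hist1h2ab (chr13:23750938-23751087, + strand): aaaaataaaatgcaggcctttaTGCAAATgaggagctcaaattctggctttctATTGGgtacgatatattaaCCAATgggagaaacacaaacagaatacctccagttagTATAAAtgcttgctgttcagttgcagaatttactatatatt

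Both hold all 3 motifs, although *Hist1h2bg* rose and *Hist1h2ab* fell after irradiation. The octamer core was in 7 of 13 members with a promoter that rose at either age and in 6 of the 23 other tested members. TATAAA was in 7 of the 13 and 16 of the 23, and CCAAT in 11 and 20. Since the octamer core was found only in H2A and H2B promoters, its counts also follow histone type. A link of any motif to the rises was not tested.

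*Hist2h2aa1*, *Hist3h2a*, *Hist1h2ae*, *Hist1h2af*, *Hist1h2bp*, *Hist2h2bb*, *Hist1h4m* and *Hist1h4h* lay outside the rule for naming members, and were named after their values were seen.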

How the data were processed

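Blood RNA of 24 mice was hybridised after globin reduction to 1-colour Agilent 44K arrays with 60-base probes, and scanned with Agilent Feature Extraction 12.0.2 per the labels. The authors' deposited scanner files hold background-corrected spot intensity (processed signal), used here as the starting values for 44397 spots and 39429 probes. Their deposited value table holds log2 values of 17166 probes, 36 of them members, used only as an alternative.

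Log2 intensity was set to each array's median (8.66 to 44.8 in signal). Probes non-uniform or not significantly above background by the scanner software's test (a looser mark than well above background) in 25% or more of arrays were dropped, as were genes not 1.5-fold from the median in at least 20% of arrays, and the brightest probe stood for a gene. Between 43.9% and 64.4% of spots per array were well above background, and the number of arrays limits the precision. Each comparison was fitted on its 12 arrays (24 for the difference between ages) with limma 3.58.1 in R 4.3.3, two-sided, with Benjamini-Hochberg adjustment over 17805 genes. This procedure was tested on simulated data. For a gene with no mouse of a group well above background, the fold was taken against the lowest signal well above background on each array of that group, or the gene's own signal where higher. All mice of the other group were used, also those not well above background, so this fold is approximate and not a strict bound. The labels call the samples separate mice.

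The members and gene lists were chosen with earlier results of these data known. Members named were the 5 largest rises and falls called in each comparison, the 2 brightest of each histone type and every tested H1 gene. Of each other list the 3 brightest genes could be named, and all tested variants. Alternatives were other scalings (75th percentile, quantile, median of bright probes, the authors' values), normexp background correction, other filters and tests, blocks for replicate number and slide, and each array left out. Left out after seeing the data were 6 arrays with high hepatocyte markers and 2 with high mitotic genes, very similar arrays were averaged, and limma was run within the slide that held both treatments of an age. The mm9 positions come from the scanner files and the promoters from RefSeq (GRCm38.p6). Probe sequences come from the scanner files, and no protein sequence was used here.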

Additional observations from a re-analysis of the deposited data

Results flagged for a closer look

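Of 100 groups of 6 mice looked at (25 named members in 4 groups), 4 held a mouse far from the other 5, and chance alone marks about 1 in 20 groups. *Hist1h1c* was 7.92 in young irradiated mouse 4, against 9.40 to 10.12 in the other 5 young irradiated mice. *Hist1h2ac* was 3.28 in the same mouse, against 4.56 to 5.22. This mouse also had the lowest platelet marker mean of its group (0.50), and the part of platelet RNA was not tested. *Hist1h2bq* was −0.27 in young irradiated mouse 3, against −1.30 to −0.94, in a group where it was not well above background in any mouse. *Hist1h3d* was 7.16 in young unirradiated mouse 5, against 7.53 to 7.65.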

How the results depend on the processing

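The cause of these shifts was not tested, except where stated. In young mice the 12 rises became 3 with normexp, and the 4 falls became 0 with normexp, 2 with the replicate block and 1 without the arrays with high hepatocyte markers. In old mice the 12 rises became 19 with the median of bright probes and 0 with normexp. With bright probes 24.1% of all genes were called, 53.3% of them higher, against 24.9% and 30.1% in the main fit. The 2 falls became 1 with the 75th percentile and 1 after quantile normalization, 0 with bright probes alone and 0 with normexp, 1 without the hepatocyte-high arrays and 5 without the 2 arrays with high mitotic genes. With normexp the upper quartile lay only 0.10, 0.36 and 0.45 above the median on 3 arrays, against 0.78 to 2.15 on the others, and 8 genes in all were called in old mice (1765 at an unadjusted limma *p* under 0.05).

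For age without irradiation, the 22 members higher became 3 (75th percentile), 4 (quantile), 2 (bright probes), 0 (normexp) and 3 (authors' values), and 12 in 1 fit of all 24 arrays. In that fit 34.9% of all genes were called, against 63.9% in the main fit. The 2 lower became 7, 5, 7, 0 and 6 under the same 5 settings, 1 in the fit of 24 and 4 with slide as a random block. They became 0 with probes above background on all arrays compared, a filter that *Hist1h1a* and *Hist1h2bb* did not pass, so neither was tested there. *Hist1h2ah* reversed to −0.0152 with the authors' values, and *Hist1h2af*, outside the naming rule, lay below 0 in 2 of the 3 scalings that tested it (−0.04 to 0.03). For age with irradiation, the 2 higher became 0 (75th percentile), 1 (quantile) and 0 with bright probes, normexp, the authors' values, no filter on dim probes, the replicate block, without the hepatocyte-high arrays and with similar arrays averaged. They became 1 with probes above background on all arrays compared, 21 in the fit of 24, 11 with the slide block and 7 without the mitotic-high arrays, and 2 were lower in the fit of 24 and 2 without the mitotic-high arrays. Of all genes, 2.76%, 14.4%, 7.67% and 28.4% were called in these settings in that order, against 1.99% in the main fit. The difference between the ages was called for 4 members without the hepatocyte-high arrays.

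Leaving out 1 mouse gave 11 to 14 rises and 2 to 4 falls in young and 11 to 13 and 2 to 3 in old mice. Young falls were 2 without young unirradiated mouse 2, mouse 6 or irradiated mouse 2. For age it gave 17 to 21 higher and 2 to 4 lower (4 without young mouse 5 or old mouse 4). In irradiated mice it gave 0 to 2 higher (2 without old mouse 3 or old mouse 6) and 0 to 1 lower, and 0 to 2 differences between the ages (2 without old irradiated mouse 3). Without old irradiated mouse 3, the difference between the ages was called for 5.91% of all genes. No source says that replicate numbers pair the mice, and the main fits did not pair them. Same-numbered mice deviated together (correlation above 0.1) in 3, 4, 1 and 4 of 6 pairs in the 4 comparisons. With so few pairs this cannot settle whether they were paired. With the replicate block the rises and falls were 12 and 2 in young and 11 and 3 in old mice, the age calls 15 and 2 without and 0 and 0 with irradiation, and the differences between the ages 0. Each age had only 1 slide with both treatments, and its other slides held a single treatment, so treatment and slide are partly confounded. On the slide that held both treatments (2 mice per group), all 16 and all 14 called members kept their sign. Its arrays also took part in the fits that gave these calls, so this is not an independent check. A limma test on those 4 arrays, added after seeing the data, called 0 higher and 0 lower in young (17 of 41 members at an unadjusted *p* under 0.05, with 77 of all genes called) and 11 higher and 0 lower in old mice (24 of 41). In old mice that test called 12.1% of all genes, 48.3% of them higher.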
